A study of Homo sapiens with 12 samples.

Results

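MAP3K7, BRD9, DVL2, PPP2R5A, TMEM14C, ENOSF1, COASY, UBA1 and DLST are 9 human genes whose transcripts have been reported to be mis-spliced in cells with mutant SF3B1. They were taken by symbol from the 67049 gene IDs counted in each library, and each symbol matched 1 ID. The counts are per gene, so the amount of RNA of each gene was compared and its splicing was not analysed here.

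The study sequenced RNA from the nuclei and the cytoplasm of HEK293T cells, an established line derived from human embryonic kidney. The cells had been transiently transfected for 48 h, using a lipid reagent, with the plasmid pIRES2 carrying SF3B1 with the K700E substitution or wild-type (WT) SF3B1. Each of the 4 groups (K700E cytoplasm, WT cytoplasm, K700E nucleus and WT nucleus) had 3 libraries, 12 in all. The labels describe no untransfected or empty-vector cells, the endogenous SF3B1 gene was still present in both arms, and gene counts do not part its mRNA from that of the plasmid. No label states that replicate libraries were grown or transfected separately, and the p-values below therefore measure the spread among libraries, part of which may be technical.

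SF3B1 belongs to the U2 snRNP and helps to select the branch point and the 3′ splice site of an intron. Mutant SF3B1, as known from blood cancers, uses cryptic 3′ splice sites a short way upstream of the usual ones. The extra bases can shift the reading frame, and a transcript with an early stop codon can be removed in the cytoplasm by nonsense-mediated decay (NMD). In BRD9 the reported event is the inclusion of an exon that carries a stop codon, a poison exon.

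Total counts ran from 13422598 to 18116929 in the cytoplasmic libraries and from 9086743 to 11200562 in the nuclear ones. SF3B1 itself averaged 7924 ± 882 CPM (counts normalised to library size and scaled with TMM factors; SD, n = 3) in K700E cytoplasm and 9430 ± 1061 CPM in WT cytoplasm. In nuclei its level was 1599.6 ± 499.5 CPM with K700E and 1577 ± 784 CPM with WT. Its log2 fold change, K700E over WT, was -0.25 ± 0.30 (SE) in the cytoplasm and 0.02 ± 0.30 in the nucleus, so the arms did not differ in SF3B1 mRNA beyond the spread between libraries. Summed levels of 6 mitochondrial mRNAs ran from 560.01 to 822 CPM in nuclear libraries. In cytoplasmic ones they ran from 4924 to 5761 CPM with K700E and from 3565 to 14344 CPM with WT. All 6 had a cytoplasmic log2 fold change, K700E over WT, below 0 (median -0.84). At an edgeR adjusted p under 0.05 none of the 6 passed, beside 0.00490% of all genes. At an unadjusted p under 0.05 there were 4, beside 4.56% of all genes, and the cause was not tested. Summed levels of 4 nuclear-retained RNAs ran from 74.5 to 132 CPM in cytoplasmic libraries and from 2454 to 9673 CPM in nuclear ones. MEG3, 1 of these 4, reached at most 0.27 CPM. The 5 genes listed as expressed in HEK293T cells summed to between 79.5 and 582 CPM in all 12 libraries. These sums came mainly from LIN28B, NEFL and NEFM, as LHX1 reached at most 1.00 CPM and PAX2 at most 9.82 CPM. The 8 blood cell markers summed to at most 13.6 CPM, with CD3E at 0 counts throughout, and the 6 fibroblast markers to at most 116 CPM. The lowest HEK293T sum and the highest fibroblast sum fell in the same library, WT nuclear replicate 2. There COL1A1 alone stood at 111 CPM, so the fibroblast sum was above the HEK293T sum.

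The annotation of the 9 genes (GENCODE 29 on GRCh38) holds pairs of 3′ splice sites that lie a short way apart. A search for acceptors that share a donor and lie 10 to 30 bases apart in annotated transcripts found 7 such pairs, in BRD9, DVL2, TMEM14C, ENOSF1 and DLST. The widest pair of each gene is printed 5′ to 3′ on the transcript strand, because it shows what a shift between neighbouring acceptors adds to an mRNA. Capitals mark the bases present only when the upstream acceptor is used, and lower case marks 8 bases of mRNA on each side. The files do not say whether these are the sites used by K700E SF3B1, and their use was not measured here.
DVL2 (chr17:7229448-7229475, minus strand): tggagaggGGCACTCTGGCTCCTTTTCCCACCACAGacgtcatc
DLST (chr14:74889878-74889896, plus strand): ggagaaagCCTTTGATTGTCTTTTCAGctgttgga
ENOSF1 (chr18:683381-683395, minus strand): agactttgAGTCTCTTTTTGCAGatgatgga
TMEM14C (chr6:10724556-10724569, plus strand): tgagaccgCTTGTTTTCTGCAGgtgcaggc
BRD9 (chr5:869395-869404, minus strand): ctctctggTTTCTTTCAGggcctgcc

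The added stretches are 28 bases in DVL2, 19 in DLST, 15 in ENOSF1, 14 in TMEM14C and 10 in BRD9, and each ends in AG, the letters that close the intron when the downstream acceptor is used. The upstream acceptor belongs to 1 annotated DVL2 transcript, against 4 with the downstream one. In DLST it belongs to 1 transcript, annotated as a target of NMD, against 7, and in ENOSF1 to 1, with a retained intron, against 14. The TMEM14C pair lies outside the coding sequence, with 1 transcript on each acceptor, and the BRD9 pair has 3 on each. These stretches make up 0.523% of the exonic length of DVL2, 0.418% in DLST, 0.132% in ENOSF1, 1.06% in TMEM14C and 0.104% in BRD9. A count over the whole gene therefore changes little when a read moves from one acceptor to the other.

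**Figure D1:**
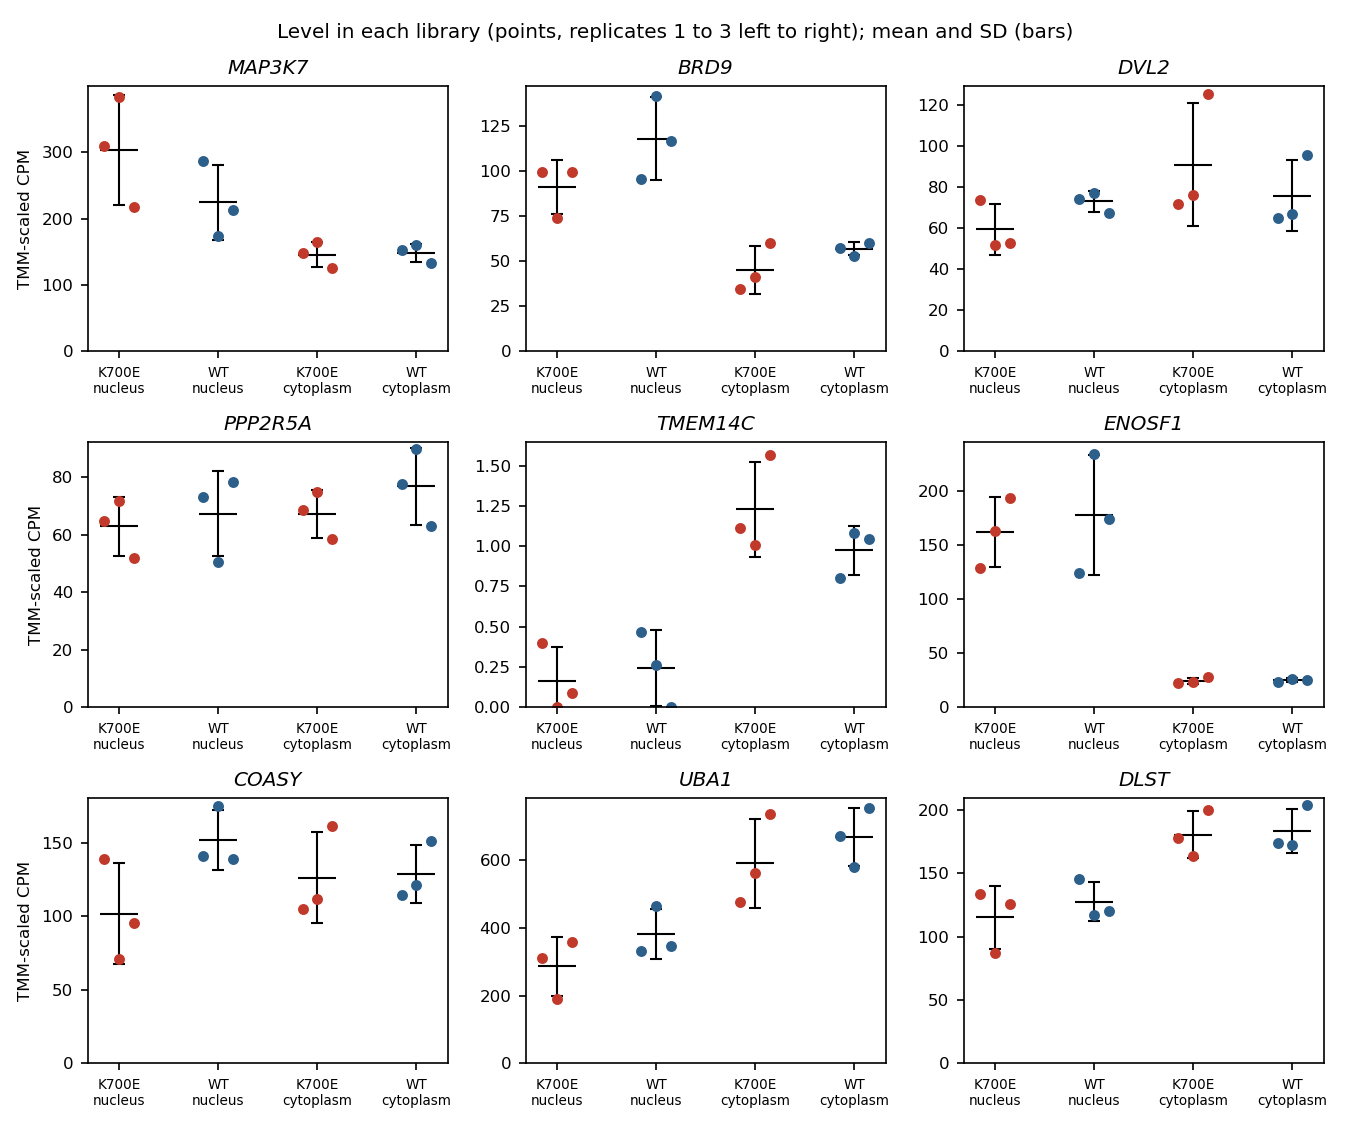
Level of each of the 9 genes in the 12 libraries, in TMM-scaled CPM, with 1 panel per gene, points for replicates 1 to 3 and black bars for the mean and SD of each group. K700E points overlap WT points of the same fraction in every panel, while MAP3K7, BRD9 and ENOSF1 are lower and UBA1, DLST and TMEM14C higher in cytoplasm than in nuclei with both constructs.

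None of the 9 genes passed the test between K700E and WT in the nucleus, in the cytoplasm or in the ratio of cytoplasm to nucleus at an edgeR adjusted p under 0.05. Across all 20394 genes tested, the share called was 0% in the nucleus (0 genes), 0.00490% in the cytoplasm (1 gene) and 0% for the ratio (0 genes). The absence of calls among the 9 is thus what the background gives. DESeq2 also called 0 of the 9 in each comparison. At an unadjusted p under 0.05 edgeR listed 1 of the 9 in the nucleus (COASY), where 6.81% of all genes passed, and 0 of the 9 in the cytoplasm and the ratio, where 4.56% and 3.30% of all genes passed. The nuclear count over all genes moved with single libraries, to 3539 of 22118 genes at an unadjusted p under 0.05 without WT nuclear replicate 1, 481 of 21666 without WT nuclear replicate 2 and 408 of 22157 without K700E nuclear replicate 2, against 1389 of 20394. The libraries of K700E and WT overlapped for all 9 genes in both fractions. Among all genes the share without overlap was 8.78% in the nucleus and 13.6% in the cytoplasm. In these bulk samples, fewer cells that express a gene and less RNA per cell cannot be told apart.

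In the nucleus 8 of the 9 log2 fold changes were below 0 and 1 was above, with a median of -0.30, while 45.8% of all genes were above 0 and the median of all genes was -0.05. The 8 included TMEM14C, which had few nuclear counts. With any 1 nuclear library left out, 7 were below 0 and 2 above, with medians from -0.44 to -0.18. In the cytoplasm 7 were below 0 and 2 above, with a median of -0.03 beside a median of 0 and 49.6% above 0 over all genes. For the ratio 7 were above 0 and 2 below, with a median of 0.12 beside a median of 0.05 and 53.7% above 0. The ratio is the difference of the other comparisons, so it carries no measurement of its own.

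MAP3K7 (ENSG00000135341.18, chr6:90513573-90587045, minus strand) encodes TAK1, a kinase upstream of NF-κB and of MAP kinases. Its nuclear levels were 309.9, 383 and 218 CPM in K700E replicates 1 to 3, and 286, 174 and 213 CPM in the WT replicates. In the cytoplasm it had 148, 164 and 126 CPM with K700E and 152, 159.8 and 134 CPM with WT. The highest nuclear value was in K700E replicate 2 and the lowest in WT replicate 2, and the other nuclear libraries of both arms interleaved. For MAP3K7 the log2 fold change, K700E over WT, was 0.44 ± 0.24 (SE) in the nucleus, with a 95% interval of -0.06 to 0.94 and an adjusted p of 0.659. The cytoplasmic value was -0.03 ± 0.24, with an interval of -0.53 to 0.47, and the ratio changed by -0.46 ± 0.34, with an interval of -1.17 to 0.25. MAP3K7 was the gene of the 9 with a nuclear fold change above 0, and its nuclear value was 0.24 when K700E replicate 2 was left out, 0.29 without WT replicate 2 and 0.66 without WT replicate 1. The ratio ran from -0.69 without WT nuclear replicate 1 to -0.27 without K700E nuclear replicate 2.

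DVL2 (ENSG00000004975.12, chr17:7225341-7234545, minus strand) encodes a Dishevelled protein that relays signals from Frizzled receptors of the Wnt pathway. Nuclear DVL2 stood at 74.0, 51.7 and 53.0 CPM with K700E and at 74.5, 77.4 and 67.6 CPM with WT. Cytoplasmic DVL2 stood at 71.8, 76.1 and 126 CPM with K700E and at 64.9, 66.9 and 96.0 CPM with WT. In nuclei K700E replicates 2 and 3 lay below all WT libraries and replicate 1 lay among them, and in cytoplasm replicate 3 was the highest library of each arm. For DVL2 the fold changes pointed in opposite directions, -0.30 ± 0.25 in the nucleus (interval -0.82 to 0.23) and 0.26 ± 0.25 in the cytoplasm (interval -0.26 to 0.79). The change of its ratio, 0.56 ± 0.35 with an interval of -0.19 to 1.30, did not pass the test (adjusted p = 0.980). Leaving out K700E nuclear replicate 1 or 2 moved the nuclear value of DVL2 to -0.48 or -0.20, and leaving out K700E cytoplasmic replicate 3 moved the cytoplasmic value to -0.042 and the ratio to 0.25.

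PPP2R5A (ENSG00000066027.12, chr1:212285537-212361863, plus strand) encodes a B56 regulatory subunit of the phosphatase PP2A, which directs the enzyme to substrates such as MYC. Nuclei held 64.9, 71.7 and 51.8 CPM of it with K700E and 72.9, 50.4 and 78.3 CPM with WT. Cytoplasm held 68.5, 74.8 and 58.3 CPM with K700E and 77.7, 89.7 and 63.0 CPM with WT. The arms interleaved in both fractions. For PPP2R5A the log2 fold change was -0.10 ± 0.23 in the nucleus (interval -0.58 to 0.38), -0.19 ± 0.23 in the cytoplasm (interval -0.67 to 0.29) and -0.09 ± 0.32 in the ratio (interval -0.77 to 0.58). The cytoplasmic value was -0.066 without WT replicate 2 and -0.32 without WT replicate 3.

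BRD9 (ENSG00000028310.18, chr5:850291-892824, minus strand) encodes a bromodomain subunit of the non-canonical BAF chromatin remodelling complex. Of its 19 annotated transcripts 9 are marked as targets of NMD and 3 as protein coding. Nuclear BRD9 was 99.6, 73.9 and 99.95 CPM with K700E and 95.7, 142 and 117 CPM with WT. Cytoplasmic BRD9 was 34.7, 41.2 and 60.4 CPM with K700E and 57.6, 53.1 and 60.2 CPM with WT. K700E replicates 1 and 2 were the lowest cytoplasmic libraries, while K700E replicate 3 was level with the highest WT library. For BRD9 the fold change was below 0 in both fractions, -0.37 ± 0.23 in the nucleus (interval -0.87 to 0.12, adjusted p = 0.666) and -0.33 ± 0.24 in the cytoplasm (interval -0.82 to 0.17). Its ratio changed by 0.05 ± 0.33, with an interval of -0.65 to 0.75. The cytoplasmic value of BRD9 was -0.17 without K700E replicate 1 and -0.59 without K700E replicate 3. Its nuclear value was -0.24 without K700E replicate 2 and -0.22 without WT replicate 2, and at its lowest with a library left out it was -0.49. BRD9 shares 222 exonic bases with ZDHHC11 on the same strand and 182 with TRIP13 on the opposite strand, together a small share of its 9572 exonic bases. ZDHHC11 had 22 to 337 counts per library and TRIP13 275 to 2090, and how the authors assigned reads there is not given in the sources used here.

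TMEM14C (ENSG00000111843.14, chr6:10722915-10731129, plus strand) encodes a protein of the inner mitochondrial membrane needed for heme synthesis in red cell precursors. Few reads were assigned to it in any library. Nuclei had 5, 0 and 1 counts with K700E and 6, 3 and 0 counts with WT. Cytoplasm had 13, 13 and 22 counts with K700E and 9, 13 and 16 counts with WT. A count of 0 still allows up to 3 counts, so no difference could be seen at this depth in nuclei. For TMEM14C the fold changes were the least precise of the 9 genes, at -0.56 ± 1.04 in the nucleus (interval -2.75 to 1.62), 0.33 ± 0.78 in the cytoplasm (interval -1.32 to 1.98) and 0.89 ± 1.30 in the ratio (interval -1.85 to 3.63). Of all windows of 75 bases in its transcripts 0.819% also occur in TMEM14B, so shared sequence covers a small part of the gene, and why the count is low was not tested. No such window is shared by MAP3K7, DVL2, PPP2R5A or UBA1, and the share is 1.69% in DLST (with DLSTP1), 3.07% in COASY, 3.12% in BRD9 and 7.75% in ENOSF1.

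ENOSF1 (ENSG00000132199.20, chr18:670324-712676, minus strand) encodes a mitochondrial enzyme of the enolase superfamily, and its 3′ end overlaps that of TYMS, the gene of thymidylate synthase, on the opposite strand. Its nuclear level was 129, 163 and 193 CPM with K700E and 124, 235 and 174 CPM with WT. Its cytoplasmic level was 22.5, 23.1 and 27.8 CPM with K700E and 23.0, 26.6 and 25.6 CPM with WT. WT replicate 2 was the highest nuclear library and the arms otherwise interleaved. For ENOSF1 the log2 fold change was -0.14 ± 0.23 in the nucleus (interval -0.63 to 0.36), -0.03 ± 0.24 in the cytoplasm (interval -0.54 to 0.47) and 0.10 ± 0.34 in the ratio (interval -0.61 to 0.81). The 967 bases that overlap TYMS exons make 8.48% of its exonic length, and without strand information reads of the overlap cannot be assigned to one of the genes. TYMS had 46 to 762 counts per library.

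COASY (ENSG00000068120.15, chr17:42561467-42566277, plus strand) encodes the enzyme of the final steps of coenzyme A synthesis. Nuclear COASY reached 139, 71.0 and 95.4 CPM with K700E and 141, 175 and 139 CPM with WT. Cytoplasmic COASY reached 105, 112 and 162 CPM with K700E and 114, 121 and 151 CPM with WT. In nuclei K700E replicates 2 and 3 were below all WT libraries, and K700E replicate 1 was level with the lowest WT library, so the arms overlapped. For COASY the nuclear fold change was -0.57 ± 0.25, the largest in size of the 9 genes, with an interval of -1.11 to -0.04 and an edgeR adjusted p of 0.659. The cytoplasmic value was -0.03 ± 0.25 (interval -0.56 to 0.50), and the ratio changed by 0.55 ± 0.36 (interval -0.21 to 1.30). Leaving out K700E nuclear replicate 2 moved the nuclear value of COASY to -0.36, and leaving out K700E nuclear replicate 1 moved it to -0.86. The ratio ran from 0.32 without K700E cytoplasmic replicate 3 to 0.83 without K700E nuclear replicate 1. When K700E replicate 2 or WT replicate 2 was left out, 0 of the 9 genes had an unadjusted p under 0.05 in the nucleus. An edgeR fit of the 6 nuclear libraries alone, which tested 8 of the 9 genes, also gave 0 (smallest adjusted p = 0.829).

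DLST (ENSG00000119689.15, chr14:74881891-74903745, plus strand) encodes the succinyltransferase subunit of the 2-oxoglutarate dehydrogenase complex of the citric acid cycle. Nuclear DLST measured 133, 87.0 and 126 CPM with K700E and 145, 117 and 120.2 CPM with WT. Cytoplasmic DLST measured 178, 163 and 200.1 CPM with K700E and 174, 172 and 203 CPM with WT. K700E replicate 2 was the lowest library of both fractions, and the others interleaved. For DLST the intervals were the narrowest of the 9 genes, with -0.15 ± 0.21 in the nucleus (interval -0.58 to 0.29), -0.02 ± 0.21 in the cytoplasm (interval -0.46 to 0.41) and 0.12 ± 0.29 in the ratio (interval -0.49 to 0.74).

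UBA1 (ENSG00000130985.17, chrX:47190861-47215128, plus strand) encodes the main enzyme that activates ubiquitin. Nuclear UBA1 amounted to 311, 189.5 and 358 CPM with K700E and to 333, 465 and 347 CPM with WT. Cytoplasmic UBA1 amounted to 476, 561 and 736 CPM with K700E and to 673, 579.6 and 754 CPM with WT. The lowest nuclear library was K700E replicate 2 and the highest WT replicate 2. For UBA1 the fold change was -0.42 ± 0.25 in the nucleus (interval -0.95 to 0.11, adjusted p = 0.661), -0.18 ± 0.25 in the cytoplasm (interval -0.71 to 0.35) and 0.24 ± 0.35 in the ratio (interval -0.51 to 0.99). Leaving out K700E or WT nuclear replicate 2 moved the nuclear value to -0.18 or -0.25, and the lowest nuclear value with a library left out was -0.60. Over all libraries left out in turn, the cytoplasmic value of UBA1 ran from -0.37 (without K700E replicate 3) to -0.045 (without K700E replicate 1), and the ratio from 0.0059 (without K700E nuclear replicate 2) to 0.42 (without K700E nuclear replicate 3).

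**Figure D2:**
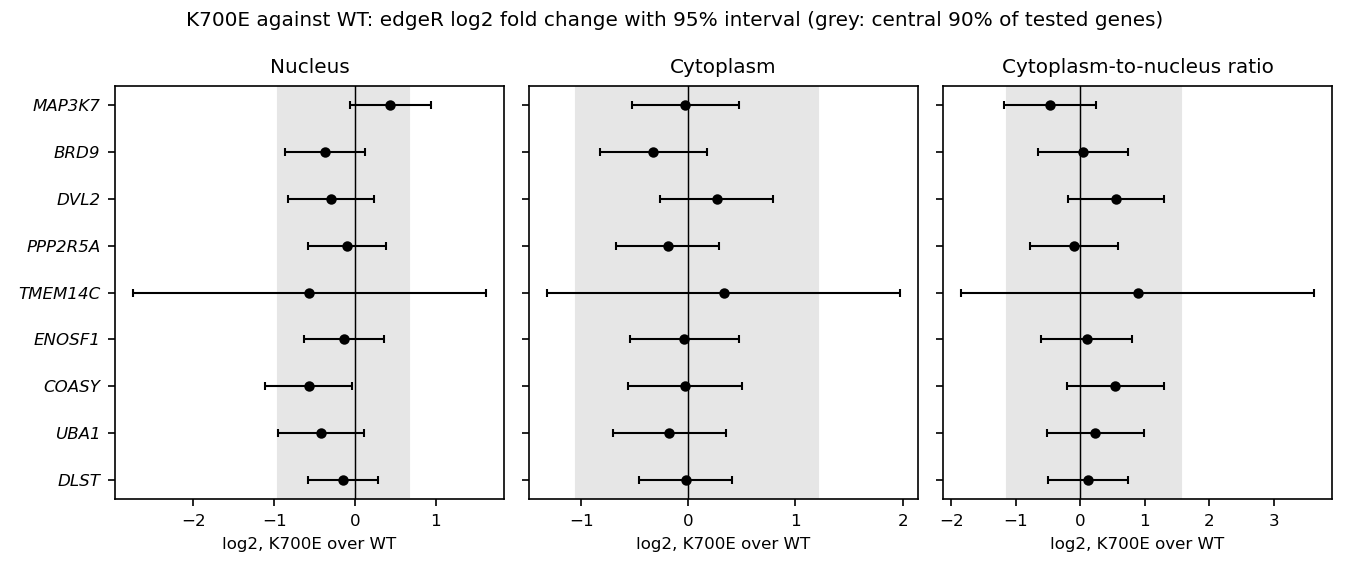
edgeR log2 fold change of K700E over WT (x axis) for each of the 9 genes in the nucleus, the cytoplasm and the cytoplasm-to-nucleus ratio, with bars for the 95% interval and a grey band that holds most tested genes. All intervals cross 0 except that of COASY in the nucleus (-1.11 to -0.04), whose adjusted p was 0.659, and the bars of TMEM14C are the widest.

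The intervals set what these libraries could show, and they rest on 1 estimate of spread shared by all groups. Fitted by group, the biological coefficient of variation was 0.408 in WT nuclei, 0.300 in K700E nuclei, 0.258 in K700E cytoplasm and 0.199 in WT cytoplasm. Nuclear bounds may thus be too narrow and cytoplasmic ones too wide. In edgeR fits of only the 6 libraries compared, 695 of 18623 genes had an unadjusted p under 0.05 in the nucleus and 1373 of 15200 in the cytoplasm. Leaving aside TMEM14C, the lower bounds ran from -1.11 (COASY) to -0.06 (MAP3K7) in the nucleus and from -0.82 (BRD9) to -0.26 (DVL2) in the cytoplasm. The upper bounds ran from -0.04 (COASY) to 0.94 (MAP3K7) in the nucleus and from 0.17 (BRD9) to 0.79 (DVL2) in the cytoplasm. A p-value that misses the threshold does not show that the levels were equal, and changes within the bounds of each gene remain possible.

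GC content was set beside the nuclear fold changes because single nuclear libraries trended with it. Over all genes, the level in WT nuclear replicate 2 rose with GC content by 0.52 on the log2 scale per 10 points of GC, relative to the mean of the nuclear libraries. In K700E nuclear replicate 2 the level fell by 0.40, and the other nuclear libraries had slopes between -0.07 and 0.0031. COASY, DVL2, UBA1 and BRD9, with GC contents of 59.1%, 60.3%, 57.0% and 53.4%, were each at their lowest nuclear level in K700E replicate 2 and at their highest in WT replicate 2. MAP3K7, at 38.7% the poorest in GC of the 9, was at its highest in K700E replicate 2 and at its lowest in WT replicate 2. Other genes followed this order in part only. DLST (51.9%) was lowest in K700E replicate 2 but highest in WT replicate 1. ENOSF1 (47.2%) was highest in WT replicate 2 but lowest in WT replicate 1. PPP2R5A (46.7%) was lowest in WT replicate 2 but highest in WT replicate 3. TMEM14C had too few nuclear counts to be ordered.

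When the trend with GC content was taken out of every library, an alternative added after the data had been seen, the nuclear fold change of COASY was -0.21 ± 0.15 and that of MAP3K7 0.12 ± 0.13. UBA1 was then at -0.10 ± 0.16, BRD9 at -0.18 ± 0.16 and DVL2, with its sign turned, at 0.10 ± 0.16. The median of the 9 genes became -0.15, with 2 above 0 and 7 below, and none had an unadjusted p under 0.05 (0 of 9, smallest edgeR adjusted p = 0.966). Each trend was taken relative to the mean of the fraction over both constructs. Any difference between K700E and WT that varied with GC content was therefore removed too. Smaller values for genes rich or poor in GC were favoured by this step, and where the trends came from was not tested. In the cytoplasm the slopes were -0.15, -0.18 and 0.27 in the K700E replicates and -0.04, -0.10 and 0.20 in the WT replicates, so replicate 3 of both arms had the steepest rise. DVL2, BRD9, COASY, UBA1 and DLST had their highest cytoplasmic level in replicate 3 with both constructs, and MAP3K7 and PPP2R5A their lowest.

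**Figure D3:**
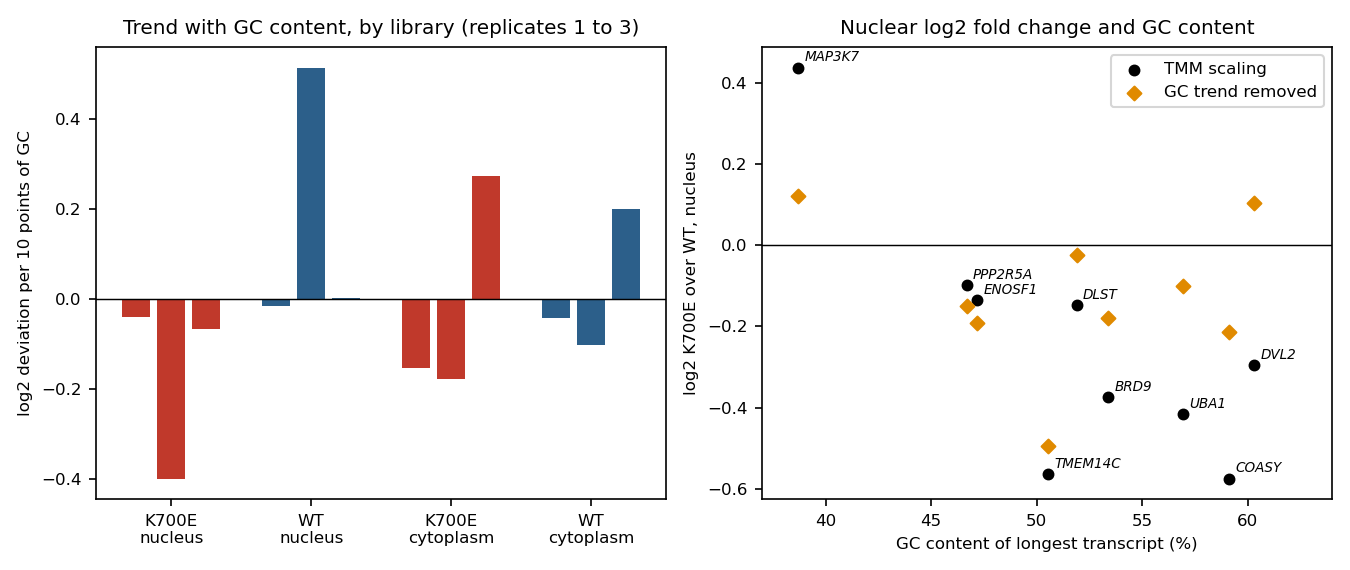
Left, slope of each library's log2 level with GC content, relative to the mean of its fraction, per 10 points of GC (bars, replicates 1 to 3, with K700E in red and WT in blue). Right, nuclear log2 fold change of the 9 genes against the GC content of their longest transcript, with TMM scaling (circles) and after removal of the GC trend (diamonds). COASY lies at -0.57 before and -0.21 after the removal, and MAP3K7 at 0.44 before and 0.12 after it. The removal also takes out any difference between constructs that varies with GC content.

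Unlike the constructs, the fractions separated most of the 9 genes. With K700E, 7 of the 9 differed between cytoplasm and nucleus at an edgeR adjusted p under 0.05, 4 higher and 3 lower in the cytoplasm. With WT, 5 of the 9 did, 2 higher and 3 lower. One of the 4 higher with K700E was TMEM14C, which passed the filter on low counts only through its cytoplasmic libraries, and of the other 8 genes 6 were called with K700E, 3 higher and 3 lower. Over all tested genes 65.9% were called with K700E (28.1% higher, 37.9% lower) and 67.1% with WT (27.1% higher, 40.0% lower), so calls were common over all genes. Of the 13895 protein-coding genes tested, 5075 were called higher and 3803 lower with K700E, and 4922 and 4101 with WT. The median log2 fold change of these coding genes, cytoplasm over nucleus, was 0.19 with K700E and 0.13 with WT. The libraries of the fractions did not overlap for 6 of the 9 genes with K700E and for the same 6 with WT, against 70.7% and 70.1% of all genes. Of these 6, 3 were higher in the cytoplasm (30.2% of all genes with K700E and 29.7% with WT) and 3 lower (40.4% with each construct). The 3 higher were UBA1, DLST and TMEM14C. Since TMEM14C passed the filter only through its cytoplasmic libraries, its lack of overlap was favoured in advance and is no result. TMM-scaled levels are shares of each fraction's RNA, and the median log2 fold change of all genes, cytoplasm over nucleus, was -0.29 with K700E and -0.40 with WT. With library size alone these medians were -0.71 and -0.92, and the values below shift down with them. With library size alone all genes split into 4215 higher and 9460 lower with K700E, against 5723 and 7725 with TMM scaling. With WT that split was 3775 higher and 10263 lower, against 5517 and 8163.

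ENOSF1 was the lowest of the 9 in cytoplasm relative to nuclei with both constructs. Its RNA averaged 24.5 ± 2.87 CPM in K700E cytoplasm and 162 ± 32.3 CPM in K700E nuclei (SD, n = 3), and 25.1 ± 1.83 CPM in WT cytoplasm and 178 ± 55.2 CPM in WT nuclei. The log2 fold change was -2.72 ± 0.25 (SE) with K700E and -2.82 ± 0.25 with WT, or 0.151 and 0.141 of the nuclear share. All cytoplasmic libraries were below all nuclear ones. TYMS, which overlaps it on the other strand, lay the opposite way, with 39.6 ± 9.69 CPM in K700E cytoplasm and 4.69 ± 0.63 CPM in K700E nuclei, and 44.6 ± 5.59 CPM in WT cytoplasm and 7.64 ± 2.49 CPM in WT nuclei. Of the 23 annotated ENOSF1 transcripts 10 are marked as retaining an intron.

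BRD9 was also lower in the cytoplasm with both constructs, at 45.4 ± 13.3 CPM against 91.1 ± 14.97 CPM in nuclei with K700E, and at 56.97 ± 3.62 CPM against 118 ± 23.2 CPM with WT. Its log2 fold change was -1.004 ± 0.24 with K700E (edgeR adjusted p = 0.0015) and -1.05 ± 0.24 with WT (0.0010). MAP3K7 followed, at 146 ± 19.3 CPM in cytoplasm and 304 ± 82.9 CPM in nuclei with K700E, and at 148.5 ± 13.5 CPM and 224 ± 57.1 CPM with WT. For MAP3K7 the values were -1.06 ± 0.24 with K700E (adjusted p = 0.0011) and -0.59 ± 0.24 with WT (0.036). The WT call on MAP3K7 was lost when WT nuclear replicate 1, WT nuclear replicate 3 or any 1 of the WT cytoplasmic libraries was left out, with values of -0.33, -0.58, -0.60, -0.63 and -0.51, and with no filter on low counts (adjusted p = 0.148). The difference between constructs, which is the ratio change of -0.46 given above, did not pass.

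UBA1 was higher in the cytoplasm, at 591 ± 132 CPM against 286 ± 86.9 CPM in nuclei with K700E and at 669 ± 87.0 CPM against 382 ± 72.7 CPM with WT. Its log2 fold change was 1.05 ± 0.25 with K700E (edgeR adjusted p = 0.0018) and 0.81 ± 0.25 with WT (0.0097). With library size alone these UBA1 calls were lost (adjusted p = 0.0552 with K700E and 0.358 with WT), and the WT call also with the stricter filter (0.110), which kept genes at 1 CPM or more in each of the 12 libraries. DLST was higher as well, at 180.3 ± 18.6 CPM against 115 ± 24.8 CPM with K700E and 183 ± 17.5 CPM against 128 ± 15.5 CPM with WT. For DLST the log2 fold change was 0.65 ± 0.21 with K700E (adjusted p = 0.012) and 0.52 ± 0.21 with WT (0.034). The DLST calls were also lost with library size alone (0.380 with K700E and 0.977 with WT) and with the stricter filter (0.171 and 0.378). The WT call was lost with RLE size factors (0.0604) and without WT nuclear replicate 2 or 3 or any 1 WT cytoplasmic library, with values between 0.46 and 0.58.

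TMEM14C passed the filter on low counts only through its cytoplasmic libraries, so it had to be higher there and its values are given as a description. Its log2 fold change was 2.82 ± 0.93 with K700E (interval 0.85 to 4.78) and 1.92 ± 0.89 with WT (interval 0.04 to 3.804), and all cytoplasmic libraries held more than all nuclear ones in both arms. These values rest on 0 to 6 counts in each nuclear library. Leaving out single libraries moved them between 2.29 and 4.58 with K700E and between 1.43 and 2.84 with WT.

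DVL2 was called with K700E, at 0.61 ± 0.25 (edgeR adjusted p = 0.040), and not with WT, at 0.05 ± 0.25 (interval -0.47 to 0.58). The test of the difference between constructs, given above, did not pass. The K700E call on DVL2 was lost with RLE size factors (adjusted p = 0.0784), with DESeq2 (0.0732), with library size alone (0.515), with the stricter filter (0.314), in a fit of the K700E libraries alone (0.0641) and with the replicate number as a block (0.0527). It was also lost without K700E nuclear replicate 2 (0.54) or 3 (0.58) and without K700E cytoplasmic replicate 3 (0.35). PPP2R5A and COASY were not called with either construct. For PPP2R5A the values were 0.10 ± 0.23 with K700E (interval -0.38 to 0.58) and 0.19 ± 0.23 with WT (interval -0.29 to 0.67). For COASY they were 0.31 ± 0.25 with K700E (interval -0.22 to 0.84) and -0.24 ± 0.25 with WT (interval -0.77 to 0.29). COASY passed with K700E when K700E nuclear replicate 1 was left out (0.65), and with WT on the negative side with library size alone (-0.76).

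**Figure D4:**
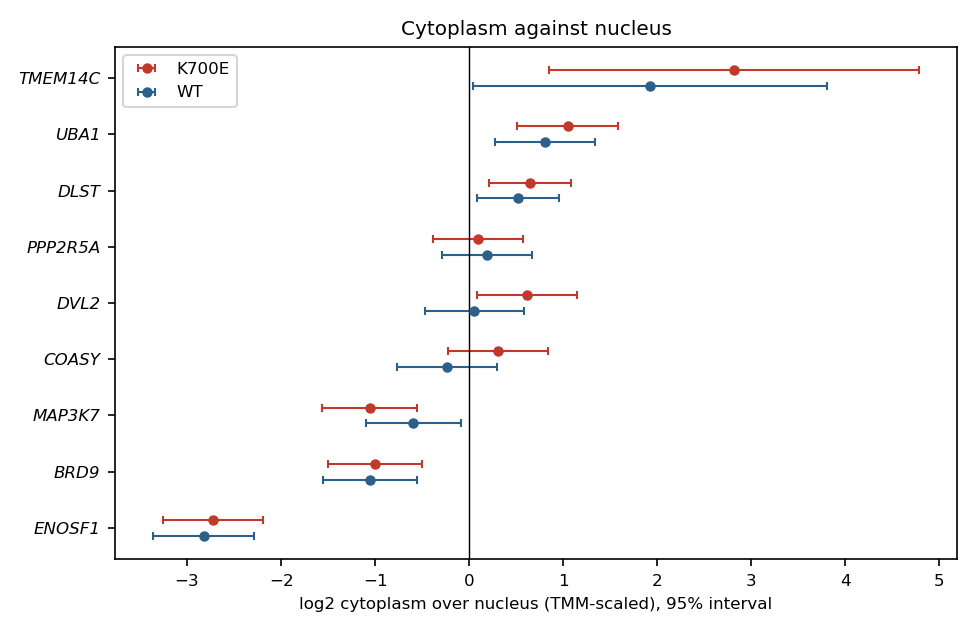
edgeR log2 fold change of cytoplasm over nucleus (x axis, TMM-scaled) with 95% intervals for the 9 genes, K700E in red and WT in blue. ENOSF1 is lowest at -2.72 and -2.82, TMEM14C is highest at 2.82 and 1.92 with the widest bars, and the red and blue intervals of each gene overlap.

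Per length of exon, the 9 genes covered a wide range of levels. In K700E cytoplasm UBA1 led with 91.8 ± 20.6 RPKM (TMM-scaled CPM per kilobase of exon), followed by DLST with 39.6 ± 4.09 RPKM and COASY with 31.3 ± 7.68 RPKM. MAP3K7, PPP2R5A and DVL2 came next with 20.2 ± 2.68, 17.6 ± 2.17 and 17.0 ± 5.58 RPKM and did not differ beyond their spread. BRD9 had 4.75 ± 1.39 RPKM, ENOSF1 2.15 ± 0.25 RPKM and TMEM14C 0.93 ± 0.22 RPKM. The order was the same in WT cytoplasm, with UBA1 at 103.9 ± 13.5 RPKM and TMEM14C at 0.74 ± 0.12 RPKM. In nuclei UBA1 again led, with 44.5 ± 13.5 RPKM with K700E and 59.3 ± 11.3 RPKM with WT. The next nuclear level was that of MAP3K7 with K700E (42.0 ± 11.5 RPKM) and that of COASY with WT (37.6 ± 5.03 RPKM), where MAP3K7 had 31.0 ± 7.90 RPKM.

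The genes whose log2 level followed each of the 9 most closely over the 12 libraries were searched among 10968 protein-coding genes. The closest were MAP3K2 for MAP3K7 (Pearson r = 0.989), SMO for BRD9 (0.988), TMEM129 for DVL2 (0.969) and MPHOSPH6 for PPP2R5A (0.863). For TMEM14C it was PODXL2 (0.970), for ENOSF1 AGAP9 (0.996), for COASY SLC25A39 (0.970), for UBA1 NUP62 (0.994) and for DLST BCL9L (0.980). The libraries fall into fractions, so a gap between cytoplasm and nucleus and trends of single libraries are shared by all genes in such values. For TMEM14C, which passed the filter on low counts only through its cytoplasmic libraries, that gap was favoured in advance and its r is no result. PPP2R5A, whose fractions differed least with K700E, had the lowest of these values.

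Other genes reported as mis-spliced with mutant SF3B1 were 19 further targets, all of them tested. None was called between K700E and WT (0 of 19 in the nucleus, the cytoplasm and the ratio), where 0%, 0.00490% and 0% of all genes were. Their fold changes split evenly, with 9 above 0 and 10 below in the nucleus (median -0.03), 10 and 9 in the cytoplasm (median 0.05) and 9 and 10 for the ratio (median -0.04). An unadjusted p under 0.05 was reached by 3 of them in the nucleus, 0 in the cytoplasm and 1 for the ratio, beside 6.81%, 4.56% and 3.30% of all genes. The smallest nuclear p-values belonged to ORAI2, which encodes a calcium channel subunit, and SEPTIN6, which encodes a septin. ORAI2 averaged 18.2 ± 3.92 CPM in K700E nuclei and 29.4 ± 10.5 CPM in WT nuclei (log2 fold change -0.69 ± 0.28, edgeR adjusted p = 0.659). SEPTIN6 averaged 79.7 ± 20.6 CPM in K700E nuclei and 55.3 ± 7.06 CPM in WT nuclei (0.53 ± 0.22, adjusted p = 0.659).

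In the cytoplasm SEPTIN6 was at 156 ± 21.5 CPM with K700E and 118 ± 8.11 CPM with WT (0.41 ± 0.21, edgeR adjusted p = 1), and the arms did not overlap. UQCC1, an assembly factor of mitochondrial complex III, was at 55.5 ± 3.95 CPM with K700E and 71.7 ± 2.86 CPM with WT (-0.37 ± 0.18, adjusted p = 1), again without overlap. The arms did not overlap for 4 of the 19 in the cytoplasm and 1 in the nucleus, beside 13.6% and 8.78% of all genes. UQCC1 also had the smallest p-value of the list for the ratio (-0.56 ± 0.26, adjusted p = 0.980), followed by ORAI2 (0.48 ± 0.39, 0.980).

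Between fractions 16 of the 19 further targets were called with K700E (9 higher and 7 lower in the cytoplasm) and 13 with WT (7 higher and 6 lower), beside 65.9% and 67.1% of all genes. With K700E the lowest were the long non-coding RNA CRNDE (-2.65 ± 0.33) and PPOX, an enzyme of heme synthesis (-2.28 ± 0.36), and the highest SERBP1 (2.47 ± 0.23) and the ribosomal protein gene RPL31 (2.54 ± 0.26). With WT the lowest were PPOX (-2.75 ± 0.36) and ANKHD1 (-2.26 ± 0.34), and the highest RPL31 (2.52 ± 0.26) and SERBP1 (2.59 ± 0.23).

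Genes that act beside the 9 formed a partner list of 76, of which 75 were tested. It held, for example, TAB and IKK subunits for MAP3K7, further BAF subunits for BRD9, Wnt and Notch genes for DVL2 and PP2A subunits with MYC for PPP2R5A. For the rest it held heme synthesis genes (TMEM14C), TYMS and further genes of thymidylate synthesis (ENOSF1), coenzyme A genes (COASY), ubiquitin enzymes (UBA1) and mitochondrial dehydrogenase genes (DLST). None was called between K700E and WT (0 of 75 in each comparison). In the nucleus 29 were above 0 and 46 below (median -0.08), with 7 at an unadjusted p under 0.05 and 6 without overlap between arms, beside 6.81% and 8.78% of all genes. In the cytoplasm 23 were above and 52 below (median -0.06), with 2 and 9 in those counts, beside 4.56% and 13.6% of all genes. For the ratio 39 were above and 36 below (median 0.01), with 2 at an unadjusted p under 0.05 beside 3.30% of all genes. By gene, the partners above 0 in the nucleus were 5 of 9 for MAP3K7, 2 of 10 for BRD9, 4 of 9 for DVL2, 4 of 10 for PPP2R5A and 2 of 10 for TMEM14C. They were 1 of 3 for ENOSF1, 2 of 7 for COASY, 6 of 9 for UBA1 and 3 of 8 for DLST, beside 45.8% of all genes.

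ALAS1, the first enzyme of heme synthesis, had the smallest nuclear p-value of the partners, with 26.2 ± 4.16 CPM in K700E nuclei and 41.6 ± 9.64 CPM in WT nuclei (-0.67 ± 0.21, edgeR adjusted p = 0.659). TYMS was next, at 4.69 ± 0.63 CPM in K700E nuclei and 7.64 ± 2.49 CPM in WT nuclei (-0.70 ± 0.29, 0.659). All K700E nuclear libraries were below all WT ones for both genes. In the cytoplasm HES1, a transcription factor induced by Notch, was at 64.5 ± 9.72 CPM with K700E and 40.3 ± 5.79 CPM with WT (0.68 ± 0.23, adjusted p = 1), without overlap. PPCDC, an enzyme of coenzyme A synthesis upstream of COASY, was at 28.7 ± 7.55 CPM with K700E and 19.6 ± 4.32 CPM with WT in the cytoplasm (0.55 ± 0.30, adjusted p = 1). PPCDC and UBE2N, a ubiquitin-conjugating enzyme, had the smallest p-values for the ratio, at 1.26 ± 0.43 and -0.79 ± 0.35 (adjusted p = 0.980 for each). None of these differences passed the test over all genes.

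Between fractions 54 of the 75 partners were called with K700E, 48 higher and 6 lower in the cytoplasm, and 53 with WT, 45 higher and 8 lower. Of all genes 28.1% were called higher and 37.9% lower with K700E, and 27.1% and 40.0% with WT. Protein-coding genes leaned the other way. Of the 13895 tested, 5075 were called higher and 3803 lower with K700E, and 4922 and 4101 with WT. With K700E the lowest were IKBKB, a kinase of the NF-κB pathway (-1.92 ± 0.22), and SDHA, a subunit of succinate dehydrogenase (-1.46 ± 0.25). The highest were PPP2R1A, the scaffold subunit of PP2A (3.03 ± 0.32), and TYMS (3.08 ± 0.29). With WT the lowest were SDHA (-1.98 ± 0.26) and IKBKB (-1.82 ± 0.22), and the highest was UBE2L3, a ubiquitin-conjugating enzyme (2.95 ± 0.20). BRD9, itself lower in the cytoplasm, stood beside 10 partners of which 9 were called higher there with K700E and 7 with WT, against 28.1% and 27.1% of all genes.

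**Figure D5:**
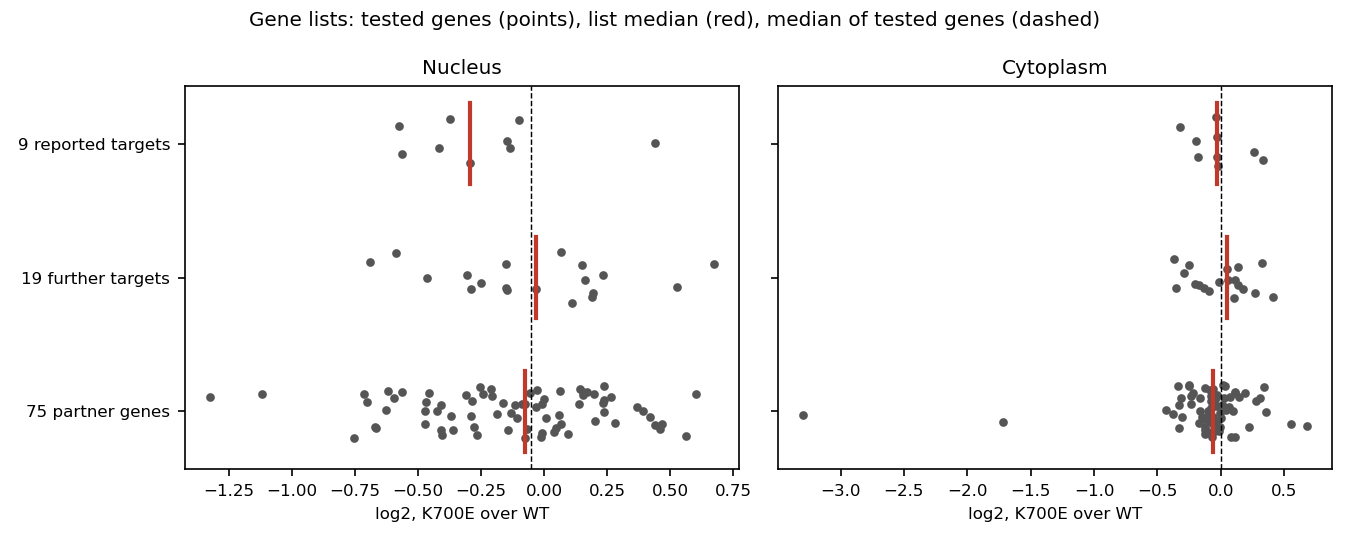
Fold change on the log2 scale, K700E over WT (x axis), in the nucleus and the cytoplasm for the 9 reported targets, 19 further targets and 75 tested partner genes (points), with the median of each list in red and the median of all tested genes dashed. The medians in the nucleus are -0.30, -0.03 and -0.08, and in the cytoplasm the isolated point at -3.29 is SHMT1, which had 0.62 to 0.71 CPM in K700E cytoplasm and 0.89, 1.41 and 17.6 CPM in WT cytoplasm.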

How the data were processed

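Gene counts were deposited by the authors, 1 file per library, as whole numbers with no normalization. Per the submitters' processing notes HISAT2 and DESeq were used. Their versions, the counting program, its use of strand, the genome build and RNA selection are not given in the sources used for this text. IDs were matched without version numbers to symbols (60463 of 67049) and to GENCODE 29 on GRCh38 (58396 IDs, 99.7% of counts). edgeR 4.0.16 in R 4.3.3 fitted all 12 libraries with 1 term per group, TMM scaling, filterByExpr (minimum count 10, minimum total 15, leaving 20394 genes), quasi-likelihood F tests and Benjamini-Hochberg adjustment, with calls at adjusted p under 0.05. The biological coefficient of variation over all 12 libraries was 0.306. CPM and RPKM were computed from the counts, RPKM with the union length of exons. Sequences were read from GENCODE 29 transcripts. Of the further targets and partners, the 2 of each list with the smallest p are named per construct comparison, and up to 2 each way among called genes per fraction comparison, at a mean of at least 5 CPM. SHMT1 was named after its value was seen. The result of 1 gene that this rule names is not reported here. The 9 genes and all lists were chosen with earlier results of these data known. Alternatives were RLE factors, DESeq2 1.42.0, library size alone, no filter, 1 CPM in all libraries, only the 6 libraries compared, a replicate block, each library left out, and removal of GC trends.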

Additional observations from a re-analysis of the deposited data

How the results depend on the processing

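Between K700E and WT, 0 of the 9 genes were called under every alternative run. Counts of all genes called moved more. In the nucleus (0 with the main settings) DESeq2 gave 1, no filter gave 36 and leaving out a library gave 0 to 1. In the cytoplasm (1 gene) DESeq2 gave 13, no filter 85, the 6 libraries alone 0, the replicate block 0, removal of GC trends 0 and leaving out a library 0 to 2. For the ratio (0) DESeq2 gave 3, no filter 31 and leaving out a library 0 to 1. Between cytoplasm and nucleus, the filter of 1 CPM in all libraries tested 12309 genes and called 7889 with K700E and 7941 with WT, against 13448 and 13680. Leaving out a library gave 12530 to 13284 and 12766 to 14287. Of the 9 genes, 4 were called with K700E under library size alone and under the strict filter, against 7, and 3 with WT under the strict filter, against 5. Leaving out a library gave 5 to 8 with K700E and 3 to 5 with WT, with 3 without WT nuclear replicate 3 or any WT cytoplasmic library.

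Signs turned for the following values, and the cause was not tested. K700E over WT in the nucleus, DVL2 was 0.10 without GC trends. In the cytoplasm, library size alone gave MAP3K7 0.011, ENOSF1 0.0013, COASY 0.0061 and DLST 0.012, and removal of GC trends gave COASY 0.0083 and DLST 0.027. For the ratio, PPP2R5A was 0.015 with library size alone, BRD9 -0.021 with no filter and -0.11 without GC trends, and UBA1 -0.030 without GC trends. Cytoplasm over nucleus with K700E, PPP2R5A was -0.011 with RLE factors, -0.011 with DESeq2, -0.31 with library size alone and -0.22 with the strict filter, and COASY was -0.12 and -0.019 under library size alone and the strict filter. With WT, DVL2 was -0.019 with RLE factors, -0.019 with DESeq2, -0.46 with library size alone and -0.27 with the strict filter, and PPP2R5A was -0.32 and -0.12 under library size alone and the strict filter.

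Leaving out a library turned signs within these ranges: in the nucleus PPP2R5A -0.27 to 0.033, TMEM14C -2.27 to 0.31, ENOSF1 -0.33 to 0.12 and DLST -0.26 to 0.027. In the cytoplasm the ranges were MAP3K7 -0.12 to 0.068, DVL2 -0.042 to 0.47, ENOSF1 -0.14 to 0.021, COASY -0.25 to 0.10 and DLST -0.11 to 0.058. For the ratio they were BRD9 -0.22 to 0.20, PPP2R5A -0.22 to 0.075, ENOSF1 -0.15 to 0.29 and DLST -0.050 to 0.24, and DVL2 in WT between fractions -0.13 to 0.17.

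Same-numbered libraries of different groups deviated together in some pairs only (r over 12059 genes from -0.49 to 0.61, with 9 of 18 pairs over 0.1). For K700E with WT the r was 0.063, 0.38 and 0.61 in the cytoplasm and 0.40, -0.15 and 0.20 in the nucleus, so not every pair passed and the numbers were not taken to pair samples. A replicate block left 0 of the 9 called between constructs and 6 with K700E and 5 with WT between fractions. TMEM14C could not be tested under the strict filter or in the fits of the 6 nuclear or the 6 WT libraries. With 3 libraries a group, a biological coefficient of variation of 0.306 and few counts for TMEM14C, small changes could not be seen.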
